A study of Homo sapiens with 4 samples.

Results

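The 38 genes described here act in homologous recombination and in the Fanconi anemia pathway of DNA repair. They were chosen by name from the 39323 genes listed in each of the 4 RNA-seq libraries, and all 38 were found. The RNA was from RD and JR1, established cell lines derived from fusion-negative rhabdomyosarcoma, a childhood tumor with features of skeletal muscle. In each line, cells infected with a lentivirus expressing an shRNA against SKP2 (shSKP2, hairpin shSKP2.2 in the study) were compared with cells infected with a non-targeting shRNA (shSCR). The labels give the shSCR cells the genotype WT and the shSKP2 cells the genotype SKP2 knockdown. All 4 groups carry the pLKO.1-puro lentiviral vector, and untransduced cells were not analysed here. SKP2 is the substrate receptor of a ubiquitin ligase that drives cells from G1 into S phase.

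There was 1 library per line and condition, so nothing can be set against a spread between replicates, and no p-value was computed. Levels are in TPM (a share of all transcripts that is corrected for transcript length), as the authors deposited them, and the number of reads behind each value is unknown. A change is the log2 ratio of shSKP2 over shSCR of the same line, with 1 TPM added to each. A gene counts as tested, meaning that it was kept for comparison, when its mean over the 4 libraries was at least 1 TPM, which kept 12985 genes and all 38 repair genes. It is called lowered or raised when its change reached 1 log2 unit in that direction, a 2-fold difference in TPM + 1. SKP2 itself went from 92.8 to 7.40 TPM in RD, and in JR1 from 46.5 to 2.72 TPM. The muscle regulator MYOD1 lay between 87.0 and 131 TPM in the 4 libraries, whereas MYF5, another myogenic factor, was listed at 0 in all of them. Short structural RNAs took from 50.1% of the TPM in RD shSCR to 64.9% in JR1 shSKP2 and more in shSKP2 than in shSCR of each line, which leaves less TPM to other genes. All tested genes together had a median change of -0.27 in RD against -0.21 in JR1, and changes are also given relative to these medians or with these RNAs removed. After the removal and rescaling, 14733 genes reached the minimum mean, and their median change was 0.10 in RD and 0.03 in JR1. Values with these RNAs removed are not centred on those medians.

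Homologous recombination copies the intact sister chromatid to mend a broken one, and so works mainly in S and G2 phase. The ends of the break are first trimmed to single strands, which BRCA1, PALB2 and BRCA2 load with a recombinase that invades the sister strand. The Fanconi anemia proteins recognise strands that are cross-linked to each other, mark the FANCD2 and FANCI proteins with ubiquitin, and pass the lesion on to recombination. Many of these genes are transcribed as cells enter S phase.

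The promoters of the genes with the lowest changes in both lines are shown first, since these are the genes with an entry whose smaller fall of both lines was largest. RefSeq promoter windows of 300 bases, 250 before the start site and 50 from it on, were found for 33 of the 38 genes in GRCh38.p14. NBN, DNA2, RAD54B, FANCI and RMI2 had no entry. Each window is printed from 5′ to 3′ on the strand of the gene. Capitals mark the words CCAAT (or ATTGG, its other strand), the E2F words TTTCCCGC, TTTCGCGC, TTTGCCGC and TTTGGCGC on either strand, and TTTGAA or TTCGAA, the cell cycle homology region, on either strand. CCAAT is the word of the factor NF-Y. The windows are those of CHEK2 (chr22:28741771-28742070, minus strand), FANCD2 (chr3:10026187-10026486, plus strand), RAD54L (chr1:46247438-46247737, plus strand) and BRCA1 (chr17:43125315-43125614, minus strand), and, for contrast, that of RAD50 (chr5:132556727-132557026, plus strand).
CHEK2: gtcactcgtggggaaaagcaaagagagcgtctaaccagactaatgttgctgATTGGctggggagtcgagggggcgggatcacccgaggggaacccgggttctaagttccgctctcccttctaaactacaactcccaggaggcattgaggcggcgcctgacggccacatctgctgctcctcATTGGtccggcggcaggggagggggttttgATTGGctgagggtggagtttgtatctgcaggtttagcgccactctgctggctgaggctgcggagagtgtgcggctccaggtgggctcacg
FANCD2: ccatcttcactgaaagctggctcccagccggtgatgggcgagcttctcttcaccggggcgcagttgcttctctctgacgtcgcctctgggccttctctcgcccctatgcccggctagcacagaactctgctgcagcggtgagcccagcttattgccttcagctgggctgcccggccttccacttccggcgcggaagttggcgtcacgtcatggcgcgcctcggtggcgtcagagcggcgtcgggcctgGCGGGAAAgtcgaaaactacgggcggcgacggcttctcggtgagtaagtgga
RAD54L: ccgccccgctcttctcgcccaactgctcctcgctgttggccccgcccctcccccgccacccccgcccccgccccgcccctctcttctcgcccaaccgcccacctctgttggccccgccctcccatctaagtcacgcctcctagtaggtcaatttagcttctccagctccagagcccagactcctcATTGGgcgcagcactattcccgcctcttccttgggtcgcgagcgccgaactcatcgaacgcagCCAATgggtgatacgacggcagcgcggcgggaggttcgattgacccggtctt
BRCA1: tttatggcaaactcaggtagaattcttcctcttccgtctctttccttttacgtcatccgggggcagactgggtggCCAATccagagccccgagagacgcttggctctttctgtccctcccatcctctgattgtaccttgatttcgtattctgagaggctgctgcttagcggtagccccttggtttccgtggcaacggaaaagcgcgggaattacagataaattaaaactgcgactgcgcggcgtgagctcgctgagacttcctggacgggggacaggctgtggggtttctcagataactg
RAD50: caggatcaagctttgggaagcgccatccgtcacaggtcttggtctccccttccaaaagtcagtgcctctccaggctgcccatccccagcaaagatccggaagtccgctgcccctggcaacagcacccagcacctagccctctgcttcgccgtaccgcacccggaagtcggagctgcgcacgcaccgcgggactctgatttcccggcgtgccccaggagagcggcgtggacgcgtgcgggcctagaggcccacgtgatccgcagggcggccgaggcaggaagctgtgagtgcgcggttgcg

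CHEK2 held ATTGG at 3 places, FANCD2 the E2F word GCGGGAAA from base -2 before the start site, RAD54L both ATTGG and CCAAT, BRCA1 CCAAT, and RAD50 none of the words. An E2F word stood in 8 of the 33 genes (24.2%), in 6.88% of the 10090 tested genes with an entry and in 3.31% of all 35116 windows. The 8 genes were TOPBP1, CLSPN, EXO1, XRCC2, FANCA, FANCC, FANCD2 and RMI1. Their median change was -0.62 in RD and -0.46 in JR1, against -0.65 and -0.56 in the 25 genes without the word. NBN, DNA2, RAD54B, FANCI and RMI2, without an entry, stand outside this comparison, and a part of E2F factors in the changes was not tested. CCAAT stood in 16 of the 33 (48.5%) against 43.6% of the tested genes and 34.6% of all windows, and a cell cycle homology word in 4 (12.1%) against 15.4% and 16.4%. A match is a description of the letters, not evidence of a bound factor.

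As a group, the repair genes were lower with shSKP2 in both lines, and by more than most genes. Their summed level went from 376 to 217 TPM in RD, and in JR1 from 213 to 127 TPM. The median change, -0.63 in RD against -0.51 in JR1, came to -0.37 and -0.29 relative to all tested genes and -0.30 and -0.40 with the short structural RNAs removed. Lower values in both lines were found for 35 of the 38 genes, where 61.1% of all tested genes were lower in both. This count depends on the scaling, with 27 genes below the median of all tested genes in both lines (37.9% of all genes) and 26 lower in both with the structural RNAs removed (31.9%). In RD alone 37 were lower (75.0% of all genes) and in JR1 36 (68.9%).

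By the limit, RD had 7 lowered genes (18.4%), against 7.37% of all tested genes, and JR1 also 7, against 9.05%. Lowered in both lines were 4, CHEK2, RMI2, FANCD2 and FANCI (10.5%), against 4.79% of all genes. ATM, RMI1 and FANCE were lowered in RD only by this limit, and BRCA1, RAD54L and FANCB in JR1 only, and whether the lines differ in these genes was not tested. Some lay close to the limit, with FANCG at -0.99 in RD and FANCL at -0.997 in JR1 just short of it. 0 of the 38 were raised in either line, where 1.08% of all tested genes were raised in RD and 1.78% in JR1. With the structural RNAs removed, CHEK2, FANCD2 and RMI2 were lowered in RD (3.41% of all genes) and CHEK2, FANCB, FANCD2, FANCI and RMI2 in JR1 (6.73%). Centred on all tested genes, 3 were lowered in RD and 4 in JR1. With 0.1 TPM added in place of 1 there were 13 in RD and 9 in JR1. The shares of all tested genes under centring and with 0.1 TPM were not computed, so these counts show only how the calls depend on the setting. The plot of TPM by gene and library shows every value.

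**Figure D1:**
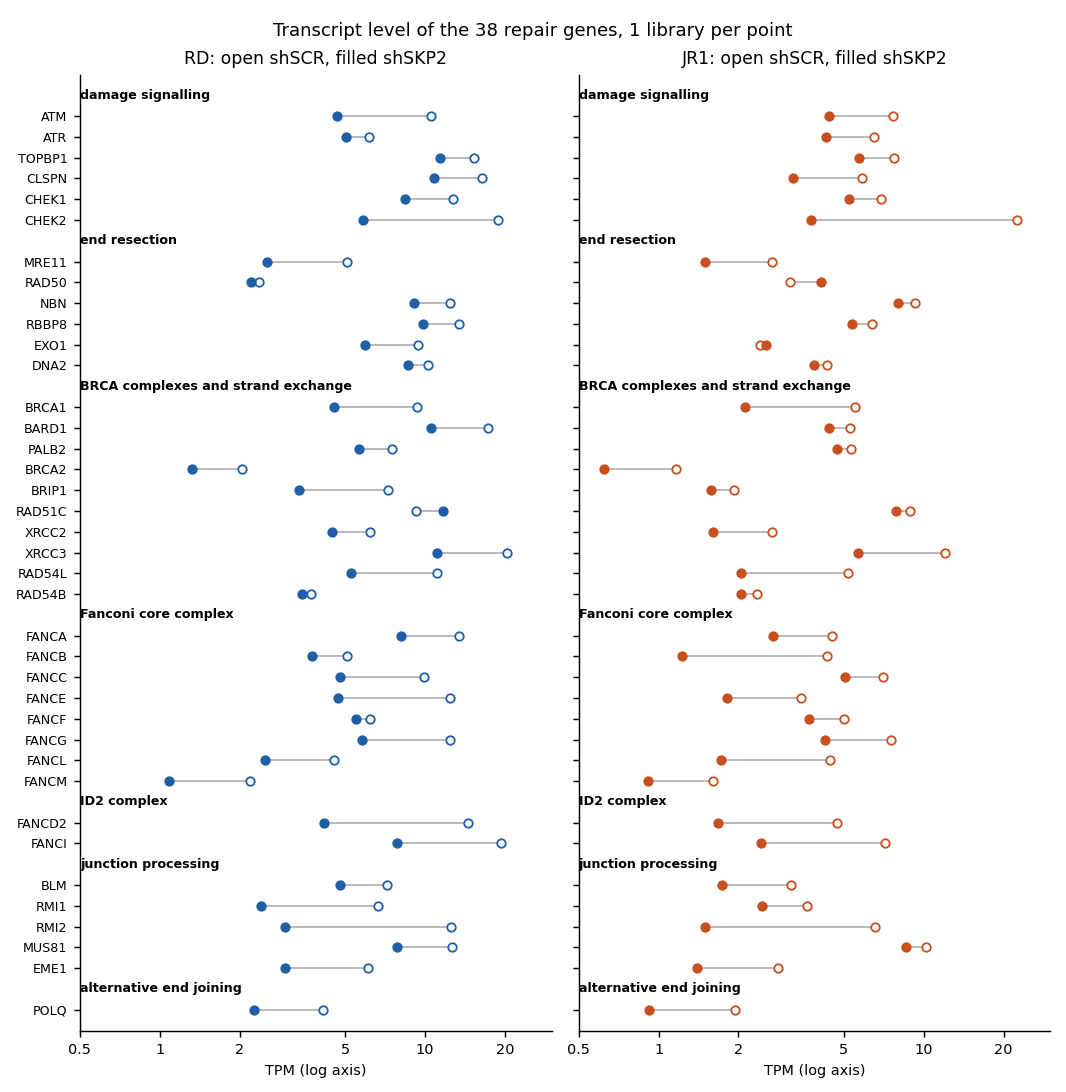
TPM of each of the 38 repair genes (log axis) in RD (left, blue) and JR1 (right, orange), grouped by role, with 1 library per point. Open points are shSCR and filled points shSKP2, and as deposited the filled point lies to the left in all but RAD51C in RD and RAD50 and EXO1 in JR1.

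Damage signalling was carried by 6 of the genes. All 6 were lower in both lines as deposited, where 61.1% of all tested genes were. Relative to all tested genes, ATR in RD was the exception (0.02). CHEK2, the checkpoint kinase that ATM activates at breaks, had the lowest change of the 38 in JR1 and one of the lowest in RD. It went from 18.8 to 5.82 TPM in RD (change -1.54), and in JR1 from 22.4 to 3.77 TPM (change -2.30). CHEK2 was the most abundant of the 38 transcripts in JR1 shSCR and lay in the middle range with shSKP2. Ranked from the lowest change of the 12985 tested genes, it stood at 76 in JR1 and 255 in RD. CHEK1, the kinase downstream of ATR, went from 12.8 to 8.41 TPM in RD, and in JR1 from 6.88 to 5.24 TPM (-0.55 and -0.34). The ratio of CHEK2 to CHEK1 within a library, which no scaling of the library can alter, went from 1.47 to 0.692 in RD and from 3.26 to 0.720 in JR1. This pair, like the other pairs below, was chosen after the values were seen. CHEK2 thus stood above CHEK1 per length in both shSCR libraries and below it in both shSKP2 libraries. CHEK2 has pseudogene copies in the genome, and reads that match both may be divided among them. CHEK2P2, a copy listed in the files, was at 0 in all 4 libraries.

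ATM, the kinase that senses broken ends, went from 10.6 to 4.64 TPM (-1.03) in RD, and in JR1 from 7.62 to 4.38 TPM (-0.68). ATR, which senses single strands at stalled forks, went from 6.17 to 5.04 TPM (-0.25) in RD, and in JR1 from 6.5 to 4.27 TPM (-0.51). ATM was thus 1.71 times ATR in RD shSCR and 0.921 times with shSKP2, while in JR1 the ratio went from 1.17 to 1.03. TOPBP1 and CLSPN, which help ATR to activate CHEK1, were lower by 0.39 and 0.56 in RD and by 0.38 and 0.70 in JR1.

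End resection showed the smallest changes of the larger roles. The medians of its 6 genes were -0.42 in RD and -0.16 in JR1, and -0.05 and 0.10 with the structural RNAs removed. MRE11, the nuclease of the complex that holds broken ends, went from 5.09 to 2.53 TPM (-0.79) in RD, and in JR1 from 2.68 to 1.5 TPM (-0.56). Its partner RAD50, the ATPase of the complex, did not follow. RAD50 went from 2.36 to 2.20 TPM (-0.07) in RD, and in JR1 from 3.13 to 4.10 TPM (0.30). The ratio of MRE11 to RAD50 went from 2.16 to 1.15 in RD and from 0.856 to 0.366 in JR1. NBN, the third subunit, had changes of -0.42 in RD and -0.19 in JR1, close to those of RBBP8 (-0.41 and -0.22), which starts resection with MRE11. EXO1 and DNA2 extend it. EXO1 went from 9.37 to 5.95 TPM (-0.58) in RD, and in JR1 from 2.41 to 2.53 TPM (0.05), and DNA2 from 10.2 to 8.60 and from 4.31 to 3.85 TPM (-0.23 and -0.13).

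**Figure D2:**
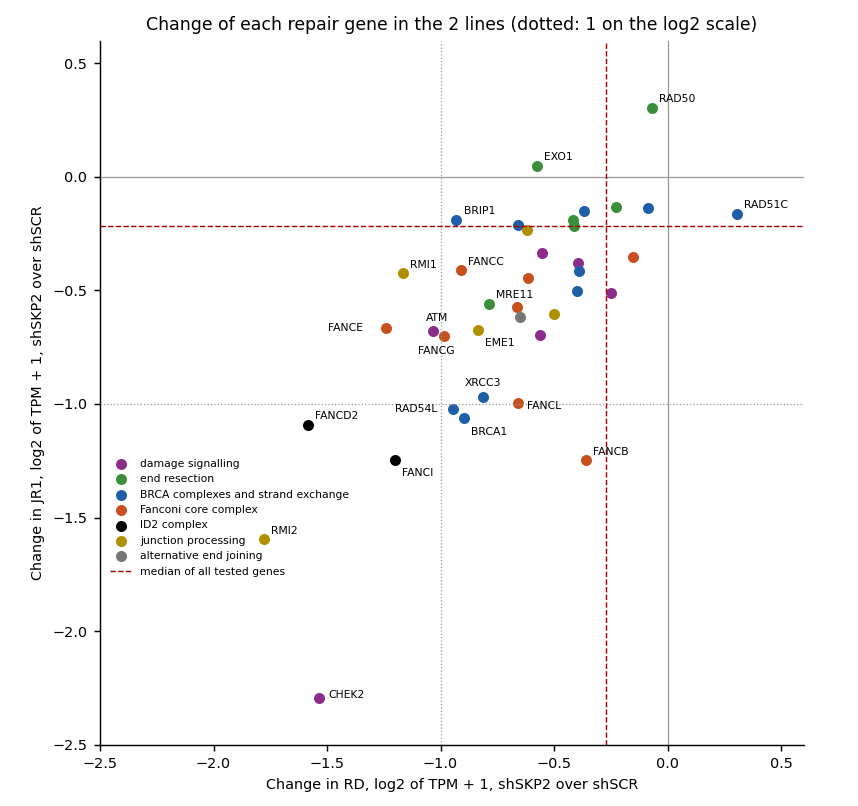
Change of each repair gene in RD (horizontal axis) and JR1 (vertical axis), as log2 of TPM + 1 in shSKP2 over shSCR, colored by role, with dotted lines at -1 and dashed lines at the median of all tested genes (-0.27 in RD, -0.21 in JR1). CHEK2, RMI2, FANCD2 and FANCI lie past -1 in both lines, and RAD50, EXO1 and RAD51C lie on opposite sides of 0, of which EXO1 alone also lies on opposite sides of the medians.

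The 10 genes of the BRCA complexes and of strand exchange were uneven. BRCA1, which promotes resection and brings in PALB2, went from 9.31 to 4.53 TPM (-0.90) in RD, and in JR1 from 5.50 to 2.11 TPM (-1.06). BARD1, with which BRCA1 forms its ubiquitin ligase, went from 17.3 to 10.6 TPM (-0.66) in RD, and in JR1 from 5.25 to 4.39 TPM (-0.21). The ratio of BRCA1 to BARD1 therefore went from 0.539 to 0.429 in RD and from 1.05 to 0.481 in JR1. PALB2, the bridge to BRCA2, had changes of -0.37 in RD and -0.15 in JR1. BRCA2, which loads the recombinase, was the least abundant of the 38 in RD and JR1 shSCR, at 2.04 and 1.16 TPM, and read 1.32 and 0.620 TPM with shSKP2. BRIP1, the helicase bound to BRCA1, went from 7.27 to 3.34 TPM (-0.93) in RD, and in JR1 from 1.93 to 1.57 TPM (-0.19).

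Of the genes that act with the recombinase, RAD54L and XRCC3 were the lowest. RAD54L, a motor protein of strand invasion, went from 11.1 to 5.28 TPM (-0.94) in RD, and in JR1 from 5.19 to 2.05 TPM (-1.02). Its relative RAD54B had changes of only -0.09 in RD and -0.14 in JR1, and lay higher than the typical tested gene in each line. The ratio of RAD54L to RAD54B went from 2.99 to 1.53 in RD and from 2.21 to 1.00 in JR1. XRCC3 and RAD51C form a pair of recombinase paralogs. XRCC3 went from 20.4 to 11.1 TPM (-0.81) in RD, and in JR1 from 12.0 to 5.65 TPM (-0.97), whereas RAD51C went from 9.26 to 11.7 TPM (0.30) in RD, and in JR1 from 8.90 to 7.85 TPM (-0.16). RAD51C was the only one of the 38 with a positive change in RD as deposited. The ratio of XRCC3 to RAD51C went from 2.20 to 0.955 in RD and from 1.35 to 0.720 in JR1. XRCC2, of the other paralog complex, had changes of -0.40 and -0.50.

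**Figure D3:**
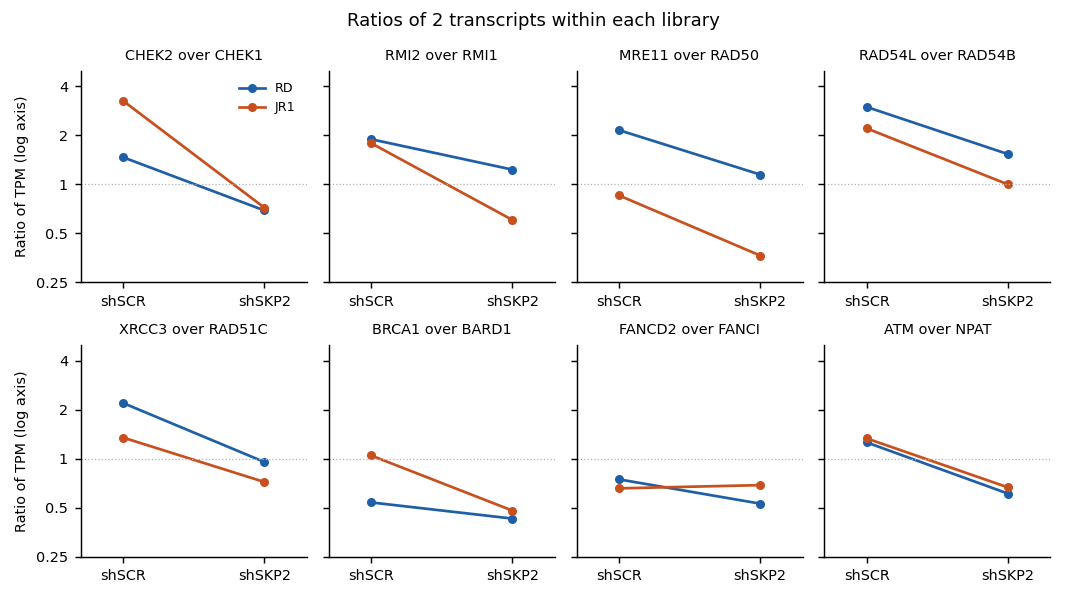
Ratio of the TPM of a pair of transcripts within each library (vertical log axis) in shSCR and shSKP2 of RD (blue) and JR1 (orange), with 1 library per point. CHEK2 over CHEK1, RMI2 over RMI1, MRE11 over RAD50, RAD54L over RAD54B, XRCC3 over RAD51C, BRCA1 over BARD1 and ATM over NPAT were lower with shSKP2 in both lines, whereas FANCD2 over FANCI was lower in RD only. The pairs and their order were chosen after the values were seen, so their directions are a description only. EXO1 over DNA2, not plotted, went from 0.916 to 0.692 in RD and from 0.559 to 0.657 in JR1.

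By position in GRCh38, CHEK2 lies at chr22:28687743-28741866, RMI2 at chr16:11345459-11351760, FANCD2 at chr3:10026437-10101932 and FANCI at chr15:89243973-89317259, and each value is for the whole gene.

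The Fanconi anemia genes included both of the genes at the centre of the pathway. FANCD2 and FANCI form the clamp that is marked with ubiquitin at a cross-link. FANCD2 went from 14.5 to 4.16 TPM (-1.58) in RD, and in JR1 from 4.71 to 1.68 TPM (-1.09), and FANCI from 19.4 to 7.85 TPM (-1.20) in RD, and in JR1 from 7.16 to 2.44 TPM (-1.25). Both were lower in each line also when centred on all tested genes and with the structural RNAs removed. Their ratio was 0.747 and 0.530 in RD and 0.658 and 0.689 in JR1, so that FANCI exceeded FANCD2 in all 4 libraries. FANCD2 has pseudogene copies nearby on chromosome 3, so its reads may be divided in the authors' counting.

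All 8 genes of the core complex, the ligase that marks this clamp, were lower in both lines as deposited, where 61.1% of all tested genes were. The medians of the 8, -0.66 in RD and -0.62 in JR1, were -0.39 and -0.40 relative to all tested genes. FANCF, the adaptor of the complex, was the exception relative to all genes, at 0.12 in RD against -0.14 in JR1. FANCE, which contacts FANCD2, went from 12.4 to 4.68 TPM (-1.24) in RD, and in JR1 from 3.45 to 1.81 TPM (-0.66). FANCB, a subunit of the catalytic part, went from 5.08 to 3.74 TPM (-0.36) in RD, and in JR1 from 4.30 to 1.23 TPM (-1.25). Of the 38 genes FANCB had the largest difference between the lines in its change, RD minus JR1 being 0.89 on the log2 scale, followed by CHEK2 (0.76) and RMI1 (-0.74). FANCL, the ubiquitin ligase subunit itself, went from 4.52 to 2.50 TPM (-0.66) in RD, and in JR1 from 4.43 to 1.72 TPM (-0.997). FANCA and FANCG, which bind each other, had changes of -0.66 and -0.99 in RD and -0.57 and -0.70 in JR1. FANCC read -0.91 and -0.41, and FANCM, the translocase that finds the lesion, -0.62 and -0.44 at levels of at most 2.19 TPM.

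Junction processing held the lowest change of the 38 in RD. RMI2, a small subunit of the complex that the BLM helicase forms to dissolve crossed strands, went from 12.6 to 2.96 TPM (-1.78) in RD, and in JR1 from 6.53 to 1.49 TPM (-1.60). This left 23.5% and 22.8% of its shSCR level. RMI1, the subunit that RMI2 binds, went from 6.63 to 2.40 TPM (-1.17) in RD, and in JR1 from 3.64 to 2.46 TPM (-0.42). The ratio of RMI2 to RMI1 went from 1.90 to 1.23 in RD and from 1.79 to 0.606 in JR1. BLM itself had changes of -0.50 in RD and -0.60 in JR1. EME1, which gives the MUS81 nuclease its activity, had changes of -0.83 and -0.67 against -0.62 and -0.23 for MUS81. POLQ, the polymerase of an alternative joining pathway that competes with recombination, went from 4.11 to 2.26 TPM (-0.65) in RD, and in JR1 from 1.94 to 0.920 TPM (-0.61).

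Across the 38 genes Pearson r between the changes of the lines was 0.694, and Spearman rho was 0.648. The lines share no library, but the points share each library's scale and composition, and across all 12985 tested genes r was 0.617 and rho 0.702. Without CHEK2, RMI2, FANCD2 and FANCI, r over the other 34 genes was 0.467. Opposite directions were seen for 3 of the 38 genes, RAD50, EXO1 and RAD51C, against 21.3% of all tested genes.

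Other repair genes were taken from lists written from general knowledge. The 41 further genes of homologous recombination and the Fanconi anemia pathway had medians of -0.41 (RD) and -0.33 (JR1). Lower values in both lines were found for 35 as deposited (61.1% of all tested genes). This count fell to 27 relative to all tested genes (37.9%) and to 21 with the structural RNAs removed (31.9%). The limit was passed by 4 in RD and by 3 in JR1, shares near the 7.37% and 9.05% of all tested genes. The lowest was CENPS, a partner of FANCM, at -1.42 in RD and -1.35 in JR1, and the highest were SLX4, a nuclease scaffold, at 0.12 in RD and WDR48, a cofactor of the enzyme that removes ubiquitin from FANCD2, at 0.47 in JR1. With the structural RNAs removed the medians of this list were -0.07 in both lines, against -0.30 and -0.40 for the 38.

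The other repair pathways had medians nearer to that of all tested genes. Checkpoint signalling (18 genes) read -0.39 in both lines, from TIMELESS (-1.07) to CDC25A (-0.17) in RD and from WEE1 (-1.25) to RNF8 (0.59) in JR1. Non-homologous end joining, the pathway that rejoins ends without a template, read -0.33 in RD and -0.18 in JR1 over 16 genes. Base excision (22 genes) read -0.46 and -0.31 with LIG1, a DNA ligase of replication, lowest in both lines (-1.30 and -1.08). Nucleotide excision (22 genes) read -0.35 and -0.27 with XPC, its damage sensor, lowest in both (-1.36 and -1.55). Mismatch repair (6 tested of 7) read -0.42 and -0.29, and translesion synthesis (11 genes) -0.36 and -0.12. No tested gene of end joining, mismatch repair or translesion synthesis was lowered. These are short lists, and only 7.37% of all tested genes were lowered in RD and 9.05% in JR1. With the structural RNAs removed, the median of checkpoint signalling was 0.003 in RD and -0.18 in JR1. At this setting the JR1 medians of end joining and translesion synthesis turned to 0.11 and 0.10. RAD18, which directs translesion polymerases to stalled forks, was lowest of the latter in both lines (-0.93 and -0.94).

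**Figure D4:**
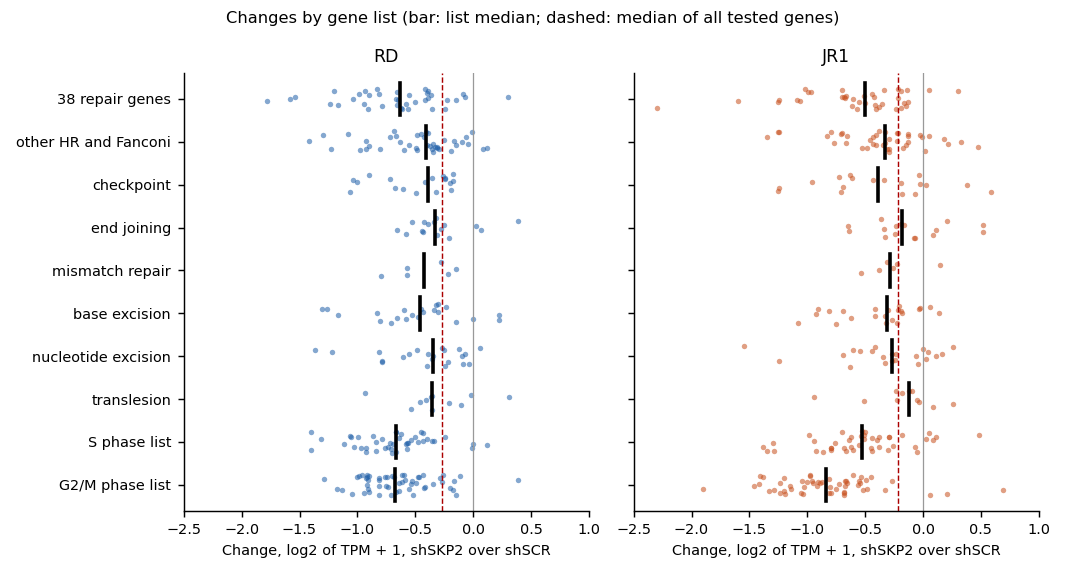
Change of each tested gene (points), as log2 of TPM + 1 in shSKP2 over shSCR, by gene list in RD (left) and JR1 (right), with a bar at each list's median and a dashed line at the median of all tested genes. The 38 repair genes have medians of -0.63 and -0.51, near the S phase list (-0.67 and -0.52) and below the other repair lists.

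Genes of proliferation moved with the repair genes. The 43 genes of an S phase list had medians of -0.67 in RD and -0.52 in JR1, and 54 genes of a G2/M list -0.67 and -0.84. 3 of the 38 repair genes, CLSPN, EXO1 and BLM, also stand in the S phase list, and the medians of the other 35 were -0.66 and -0.50. The 6 proliferation markers, MKI67, TOP2A, PCNA, MCM2, CDK1 and CCNB1, were lower in both lines, where 61.1% of all tested genes were. Of these markers, MKI67, TOP2A and CDK1 also stand in the G2/M list and PCNA in the S phase list. The summed level of the 6 markers went from 361 to 218 TPM in RD, and in JR1 from 146 to 82.8 TPM. The lowest of these levels was 4.1 TPM, and their medians were -0.33 and -0.62 with the structural RNAs removed. Markers of muscle identity lay the other way. Their summed level over 6 genes, 5 of them tested, was 355 TPM in RD shSCR against 512 TPM with shSKP2, and 502 against 718 TPM in JR1, with median changes of 0.46 and 0.58. CHRNA1 made up the largest part of these sums, at 196 and 314 TPM in RD and 284 and 425 TPM in JR1. In RD, the changes of MYOD1 and DES were only 0.11 and 0.14. MYOG, a factor of muscle differentiation, read 31.6 and 58.4 TPM in RD and 54.0 and 107 TPM in JR1 without passing the limit. DES was the one tested marker that was lower, in JR1, at 51.3 against 36.0 TPM. In bulk samples, fewer cells in S and G2 phase and less of a transcript per cell cannot be told apart, and the part of cycling or differentiating cells in the changes of the repair genes was not tested.

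The lines also differed in the level of the repair genes. A level difference is log2 of the ratio of TPM + 1 in RD over TPM + 1 in JR1 within a condition. It uses the same libraries as the changes above. With shSCR 35 of the 38 were higher in RD (71.4% of all tested genes) and with shSKP2 34 (67.8%), though relative to all tested genes RAD51C, FANCB and FANCL turned with shSCR and ATM, NBN and FANCM with shSKP2. The median difference was 0.72 with shSCR and 0.70 with shSKP2, against 0.23 and 0.17 for all tested genes. At least 1 on the log2 scale was reached by 9 genes with shSCR (6.5% of all tested genes) and by 9 with shSKP2 (5.39%). These counts depend on the scale, with 15 and 16 genes when 0.1 TPM was added in place of 1. Centred on all tested genes, 3 remained with shSKP2. The shares of all tested genes at these settings were not computed. As deposited and with 1 TPM added, CLSPN, BARD1, FANCA, FANCE and FANCI reached 1 in both conditions. The 6 proliferation markers had median differences of 1.24 and 1.34 and were higher in RD in both conditions, as were the 43 S phase genes, with medians of 1.16 and 0.97.

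The largest differences with shSCR were those of EXO1 (1.60), FANCE (1.59), BARD1 (1.55) and BRIP1 (1.5). EXO1 was 3.89 times as abundant in RD as in JR1, at 9.37 against 2.41 TPM, and 2.35 times with shSKP2. CHEK2, RAD50 and ATR were higher in JR1 with shSCR. CHEK2 passed from 0.837 times the JR1 level with shSCR to 1.54 times with shSKP2. RAD50 was lower in RD in both conditions, at 0.754 and 0.537 times. With shSKP2 the genes that were higher in JR1 were RAD50, MUS81, FANCC and RMI1. The order of the levels was led in RD shSCR by XRCC3 at 20.4 TPM, FANCI at 19.4 TPM and CHEK2 at 18.8 TPM, neighbours whose difference cannot be set against a spread, and in RD shSKP2 by RAD51C at 11.7 TPM. In JR1 it was led by CHEK2 at 22.4 TPM with shSCR and by MUS81 at 8.53 TPM with shSKP2.

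**Figure D5:**
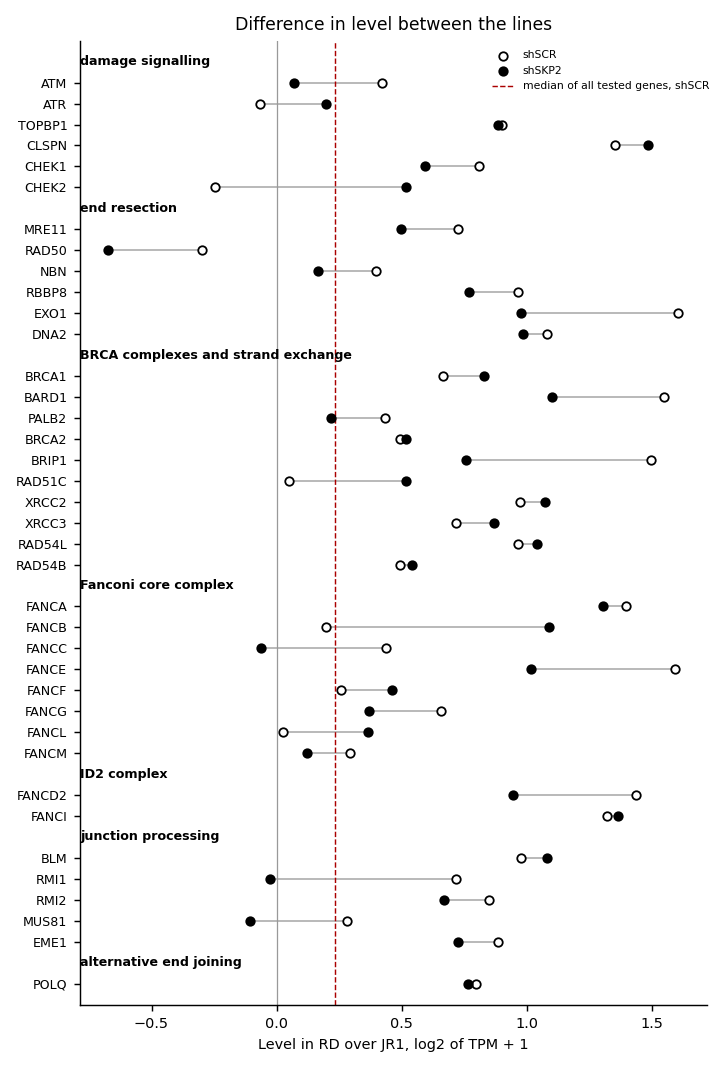
Level of each repair gene in RD over JR1, as log2 of the ratio of TPM + 1 (horizontal axis), with shSCR (open points) and shSKP2 (filled points), grouped by role, with a dashed line at the median of all tested genes in shSCR (0.23). Most points lie above 0, and RAD50 lies below 0 in both conditions.

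Several of the 38 genes start close to a gene of another function on the other strand. Only the distance between the starts was used, so whether such a pair points apart or overlaps was not determined. Starts within 1000 bases on the opposite strand, by the positions in the deposited tables, were found for 9 genes with a tested neighbour. The 9 neighbours had median changes of -0.47 in RD and -0.41 in JR1, against -0.27 and -0.21 for all tested genes, and 6 of the 9 were lower in both lines as deposited, a share near the 61.1% of all tested genes. HSCB, a chaperone of iron-sulfur clusters that starts 126 bases from CHEK2, went from 12.0 to 7.18 TPM (-0.67) in RD, and in JR1 from 12.1 to 5.31 TPM (-1.06). The ratio of CHEK2 to HSCB still went from 1.57 to 0.811 in RD and from 1.85 to 0.710 in JR1. NPAT, a coactivator of histone genes that starts 154 bases from ATM, went from 8.38 to 7.60 TPM in RD, and in JR1 from 5.72 to 6.57 TPM (-0.13 and 0.17). The ratio of ATM to NPAT went from 1.26 to 0.611 in RD and from 1.33 to 0.667 in JR1, nearly the same in both lines. NBR2, a noncoding RNA that starts 193 bases from BRCA1, went from 1.46 to 0.630 TPM in RD, and in JR1 from 1.62 to 0.810 TPM. DCTN5, a dynactin subunit that starts 94 bases from PALB2, had changes of 0.17 and 0.15. CIDECP1, a transcribed pseudogene that starts 301 bases from FANCD2, stayed between 5.85 and 6.5 TPM in the 4 libraries, while FANCD2 was lowered in both lines. MOSPD2, which starts 166 bases from FANCB, had the larger fall of the pair in RD (-0.78 against -0.36) and the smaller in JR1 (-0.48 against -1.25). The others were HNRNPK beside RMI1 (-0.47 and -0.20), MRPL27 beside EME1 (-0.41 in both lines) and ZFYVE21 beside XRCC3 (-0.54 and -0.69).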

How the data were processed

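Poly-A selected, directional libraries were sequenced, 1 for each of shSCR and shSKP2 in RD and in JR1. The authors aligned the paired reads of 150 bases to GRCh38 with STAR 2.7.9a and estimated expression per gene with RSEM 1.3.2, and they deposited TPM with 2 decimals. The annotation release is not given in the sources used here. TPM keep no read counts, so depth and counting error are unknown. The TPM were used as deposited, with 1 TPM added before log2 and a minimum mean of 1 TPM. Gene positions are those of the files, and strands were taken from GENCODE release 44 and promoter windows from the RefSeq table of GRCh38.p14. Neighbours on the other strand, partner ratios and the words were described without a test.

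All 38 members are named. The genes named beside them are SKP2, checks of the lines, the lowest or highest of other lists, and the neighbours on the other strand. The members and lists were chosen with earlier results of these data known, and the neighbours and ratios after the values were seen. The promoters shown are those of the 4 members with the lowest changes in both lines that have an entry, and of the member with the highest. Alternatives were a pseudocount of 0.1 TPM, centring on the median of all tested genes, removal of 2599 short structural RNA genes by symbol with rescaling, no filter, a minimum mean of 5 TPM, a 1.5-fold limit, and leaving out members of the phase lists. The calls were checked on artificial tables with known answers. Python 3.11.15, numpy 2.4.6, pandas 2.3.3 and matplotlib 3.10.9 were used.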

Additional observations from a re-analysis of the deposited data

Results flagged for a closer look

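RAD50, EXO1 and RAD51C had changes of opposite direction in RD and JR1. With 1 library per line and condition, these differences were not tested. RAD50 read -0.0704 in RD and 0.30 in JR1, EXO1 -0.58 and 0.0499, and RAD51C 0.30 and -0.16. Centred on all tested genes, RAD50 was higher in both lines, at 0.20 and 0.52, and RAD51C as well, at 0.57 and 0.05, so that EXO1 alone of these 3 kept opposite directions (-0.31 and 0.26). Centred in this way, ATR, NBN, BARD1, PALB2, BRIP1 and FANCF also had opposite directions in the lines. FANCB, CHEK2, RMI1 and BRIP1 differed by more between the lines, with no change of direction as deposited.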

How the results depend on the processing

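The values rest on 1 library per line and condition and on TPM without depth, so no spread is known and any move of a median is counted as one. Each change is already taken within a line, from 1 pair of libraries, so no replicate block can be added within a line. A fit that takes the 2 lines as 2 pairs would leave 1 residual degree of freedom and was not made, since the lines were described separately. As deposited, the median change was -0.63 (RD) and -0.51 (JR1), and the median level difference 0.72 with shSCR and 0.70 with shSKP2. With 0.1 TPM added these 4 values were -0.71, -0.73, 0.87 and 0.96. Centred on all tested genes they were -0.37, -0.29, 0.49 and 0.52. With short structural RNA genes removed they were -0.30, -0.40, 0.61 and 0.75. With a minimum mean of 5 TPM, which left 25 members, the median was -0.66 in RD and the level differences were 0.81 and 0.77. Without the 3 members of the phase lists it was -0.66 in RD and -0.50 in JR1, and 0.59 for the level with shSKP2. None of these 4 medians changed direction, but the median of the 6 end resection genes in JR1 went from -0.16 to 0.05 centred and 0.10 with structural RNAs removed. The 7 lowered genes in RD became 13 with 0.1 TPM added, 3 centred, 3 with structural RNAs removed and 21 at 1.5-fold. The 7 in JR1 became 4 centred and 16 at 1.5-fold. The 9 genes higher in RD with shSCR became 15 with 0.1 TPM added and 23 at 1.5-fold, and the 9 with shSKP2 became 16, 21 and, centred, 3. For these counts, shares of all tested genes were computed only as deposited with 1 TPM added and, for lowered genes, with structural RNAs removed. Raised genes stayed at 0 in both lines under each alternative. The removal of the filter altered no value. Changes of single genes turned sign only under centring (5 in RD and 7 in JR1) and structural RNA removal (5 and 8), and none of these was a lowered gene.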
